A study of Sporobolus alterniflorus and Setaria viridis with 12 samples.

Results

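The salt response of mature leaves was compared between 2 grasses by subtracting, gene by gene, the salt effect of Spartina alterniflora from that of Setaria viridis. The genes considered here are the 5320, of 15218 gene IDs in the deposited table, with a mean of at least 5 FPKM in the 6 S. viridis libraries and also in the 6 S. alterniflora libraries, so that a rise or a fall can be measured in both species. FPKM counts sequenced fragments per gene relative to the gene's length and to the total fragments of the library. There were 4 groups of 3 libraries each, 12 in all: S. viridis salt, S. viridis control, S. alterniflora salt and S. alterniflora control, the last species being listed in the labels as Sporobolus alterniflorus. Salt means NaCl added to hydroponic culture, and per the labels both species were grown at 25 to 27 °C with 16 h of light and 8 h of dark. S. alterniflora plants came from wild seed and were 2 months old when they were moved to hydroponics. The age of the S. viridis plants, the accession, the duration of salt and any pooling of plants are likewise not given in the labels used. On the dose the sources conflict: S. viridis received 250 mM and S. alterniflora 50 mM by the treatment protocol, while the salt columns of the table are headed 50 in S. viridis and 250 in S. alterniflora. Species and dose therefore differ together by either source and cannot be told apart. If instead the species prefixes of the columns had been exchanged, every effect below would belong to the other species and each difference would change sign. Libraries carry the letter (A, B or C) of their column.

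Salt stress acts on plants through loss of water availability and through the accumulation of sodium and chloride in leaf cells. Plants meet it with abscisic acid signalling, compatible solutes, sodium transport into the vacuole or out of the cell, and changes in growth and photosynthesis. S. viridis, the wild relative of foxtail millet, is a C4 annual that serves as a laboratory model and is not a plant of saline soils. S. alterniflora, smooth cordgrass, is a C4 halophyte of tidal marshes whose leaves carry salt glands that secrete salt. The deposited table pairs 0 gene IDs with a name, so no gene below is given a function, no pathway is counted and the leaf identity of the libraries could not be checked against marker genes. A few genes per comparison are named by their Setaria IDs.

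Read totals cannot be had from FPKM, so the depth of each library is unknown. The members held 69.04% to 73.4% of total FPKM in S. viridis salt libraries and 80.44% to 80.99% in S. viridis controls, against 92.62% to 93.52% in S. alterniflora salt libraries and 93.01% to 95.03% in S. alterniflora controls. One salt library of each species stood apart from the other 2. The median member of S. viridis salt library C lay 0.65 (log2) from the mean of its controls, against 1.039 in library A and 0.917 in library B. In S. alterniflora the distance was 0.621 in salt library B, 0.318 in A and 0.353 in C. S. viridis salt libraries correlated with each other across members at 0.867 to 0.903 (Spearman's rho), S. viridis controls at 0.962 to 0.981, S. alterniflora salt libraries at 0.776 to 0.921 and S. alterniflora controls at 0.843 to 0.931. Between the species rho was 0.334 to 0.488 for salt libraries and 0.46 to 0.501 for controls. These correlations are across genes, which are not independent replicates, and describe the libraries only.

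The salt effect differed between the species for 1430 of the 5320 members, of which 597 were higher and 833 lower (limma over 12529 genes of the whole table, Benjamini-Hochberg adjusted p under 0.05). Higher means a stronger rise or a weaker fall in S. viridis than in S. alterniflora. That is 26.9% of the members, against a background of 24.2% of all fitted genes and 22.2% of the 7209 fitted genes that are no members. By direction, 11.2% of members were higher, against 10.7% of all fitted genes, and 15.7% were lower, against 13.4%. These shares lie near the background and are no result about the members as a set. The difference was at least 2-fold for 1414 of the called members, or 26.6% of members against 23.9% of all fitted genes, and at least 4-fold for 800, or 15% against 13.2%. At 16-fold or more there were 125, or 2.35% against 2.07%, of which 84 were higher (1.58% against 1.49%) and 41 lower (0.771% against 0.575%). Nothing in the labels states that each library came from its own plants, so these p-values measure a spread between libraries that may be technical.

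Sevir.8G069200 had the largest positive difference. It was at 1613.88, 2132.62 and 35.79 FPKM in S. viridis salt libraries A, B and C, against 1.22, 0 and 0 FPKM in S. viridis controls. Its S. alterniflora libraries were at 158.11, 203.34 and 236.56 FPKM under salt, against 199.78, 272.63 and 320.22 FPKM in controls. The S. viridis groups did not overlap and the S. alterniflora groups did, and S. viridis salt library C was far below the other 2. The difference of salt effects was 8.99 ± 1.60 (log2 ± SE, limma adjusted p = 0.00251), and 10.87 without S. viridis salt library C, 7.94 without B and 8.14 without A. With a pseudocount of 0.1 in place of 1 it was 11.44, since 2 controls were listed at 0.

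Sevir.9G190700 showed the same form with a steadier level in S. alterniflora. Its S. viridis salt libraries were at 908.02, 601.07 and 185.11 FPKM, against 0.99, 0.29 and 2.14 FPKM in S. viridis controls. Those of S. alterniflora were at 15.3, 11.69 and 14.55 FPKM under salt, against 14.04, 12.62 and 14.44 FPKM in controls. In FPKM, S. alterniflora controls thus lay above S. viridis controls, and S. alterniflora salt libraries below S. viridis salt libraries, with no overlap in either case. How S. alterniflora reads were placed on Setaria IDs is not given, so levels may not be comparable between the species. The difference was 7.86 ± 0.69 (limma adjusted p = 3.26e-05), made up of an S. viridis effect of 7.86 ± 0.60 and an S. alterniflora effect of 0.01 ± 0.24.

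Sevir.4G111600 had the most negative difference, and here the S. alterniflora effect made it. In S. viridis it was at 63.94, 44.87 and 134.33 FPKM under salt, against 105.23, 110.04 and 118.28 FPKM in controls, and the groups overlapped. Its levels in S. alterniflora were 475.34, 2334.38 and 1863.7 FPKM under salt, against 0.62, 20.54 and 1.7 FPKM in controls, with no overlap. The difference was -8.73 ± 1.19 (limma adjusted p = 0.000477). The call within S. alterniflora (limma adjusted p = 0.0146) was lost in 3 of the 6 fits without 1 library of that species.

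Sevir.2G294100 was the next most negative, through its fall in S. viridis. It was at 0.27, 0.84 and 0.42 FPKM in S. viridis salt libraries, against 362.83, 455.27 and 326.31 FPKM in S. viridis controls. In S. alterniflora it was at 137.03, 54.15 and 33.12 FPKM under salt, against 237.33, 126.78 and 80.64 FPKM in controls, and these groups overlapped. The S. alterniflora effect of -1.09 ± 0.58 did not pass the test (limma adjusted p = 0.436). The difference was -6.90 ± 0.68 (limma adjusted p = 6.44e-05). All 4 of these genes kept their call in each of the 12 fits that left out 1 library, with a highest adjusted p (limma) of 0.00876. Over those fits the difference was 7.38 to 8.52 for Sevir.9G190700, the highest without S. viridis salt C, and -7.35 to -6.35 for Sevir.2G294100, which was at -6.87 without that library. For Sevir.4G111600 it was -9.85 without S. alterniflora control B, -7.99 without S. alterniflora control A and -9.17 without S. viridis salt C. With a pseudocount of 0.1 it was 8.88 for Sevir.9G190700, -9.34 for Sevir.4G111600 and -8.28 for Sevir.2G294100.

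**Figure D1:**
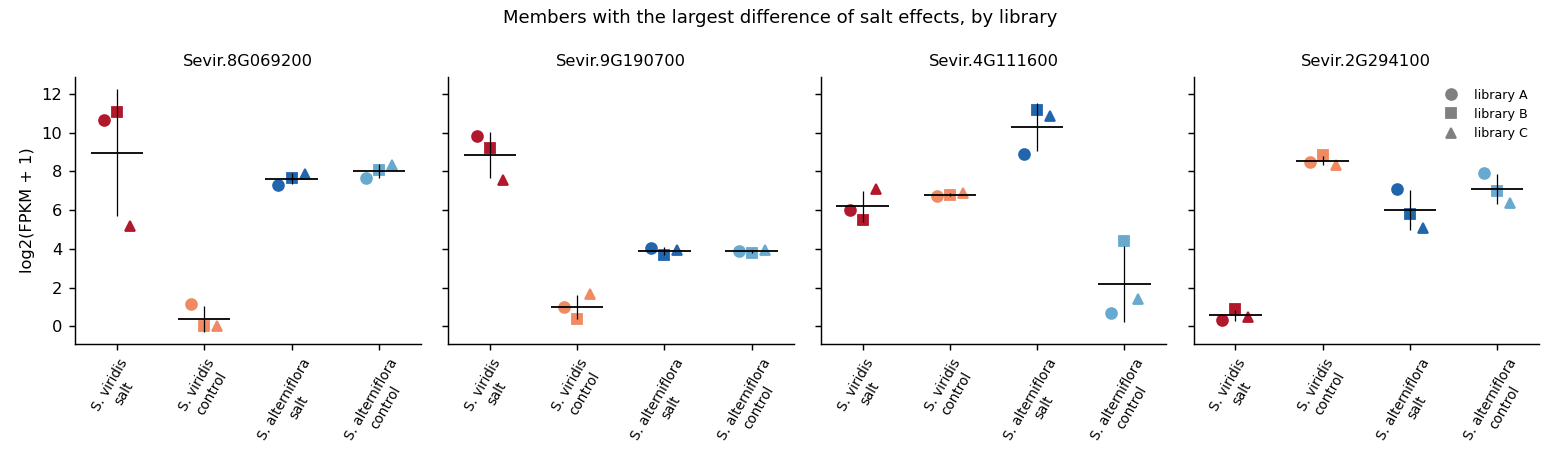
Levels of the 2 members with the largest positive (left) and the 2 with the largest negative difference of salt effects, as log2(FPKM + 1), in each of the 12 libraries, with group means (horizontal bars) and SD (vertical lines, n = 3). Sevir.8G069200 and Sevir.9G190700 lie higher in S. viridis salt than in S. viridis control libraries, Sevir.4G111600 higher in S. alterniflora salt than in S. alterniflora control libraries, and Sevir.2G294100 lies near 0 in the 3 S. viridis salt libraries.

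Most of the called differences lay in members with an S. viridis call and no S. alterniflora call. Each species was also tested on its own 6 libraries, and the calls were set beside those of the interaction. Such calls were far more frequent for S. viridis, at 52.5% of all genes fitted there, than for S. alterniflora, at 1.62%. These rates alone favour a call for the first species only. The share of this pattern over all fitted genes was not counted, so its majority is no result about the members. Of the 597 members with a higher difference, 561 rose in S. viridis and were not called in S. alterniflora. Their median effect was 2.32 (log2) in S. viridis and 0.05 in S. alterniflora, and the median of their group means was 56.7 FPKM in S. viridis salt and 8.36 FPKM in S. viridis control, against 16.9 FPKM in S. alterniflora salt and 15.4 FPKM in S. alterniflora control. Of the 833 members with a lower difference, 742 fell in S. viridis and were not called in S. alterniflora. These had a median effect of -1.93 in S. viridis and 0.17 in S. alterniflora, and median group means of 11 FPKM in S. viridis salt and 47.3 FPKM in S. viridis control, against 30.4 FPKM in S. alterniflora salt and 26.7 FPKM in S. alterniflora control. Such medians, here and below, describe sets chosen by the same contrast and are no separate evidence. The 561 became 639 and the 742 became 1145 when S. viridis salt library C was left out.

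A call in one species and none in the other is no test of the difference itself, which was read from the interaction. Of 2775 members called in S. viridis and not in S. alterniflora, 1303 passed the interaction, which is 42.1% of the 1331 that rose and 51.4% of the 1444 that fell. For the 770 others that rose in S. viridis, S. viridis had a median effect of 1.13 and S. alterniflora one of 0.46. For the 702 others that fell, S. viridis had -1.22 and S. alterniflora -0.31. For most of the 1472 uncalled members the data decide neither way: the 95% interval of the difference lay within 2-fold for 42 of the 770 and 11 of the 702. Conversely, 80 of the 2438 members called in neither species passed the interaction, 16 of them higher and 64 lower. The 64 had a median effect of -0.60 in S. viridis and 1.09 in S. alterniflora.

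**Figure D2:**
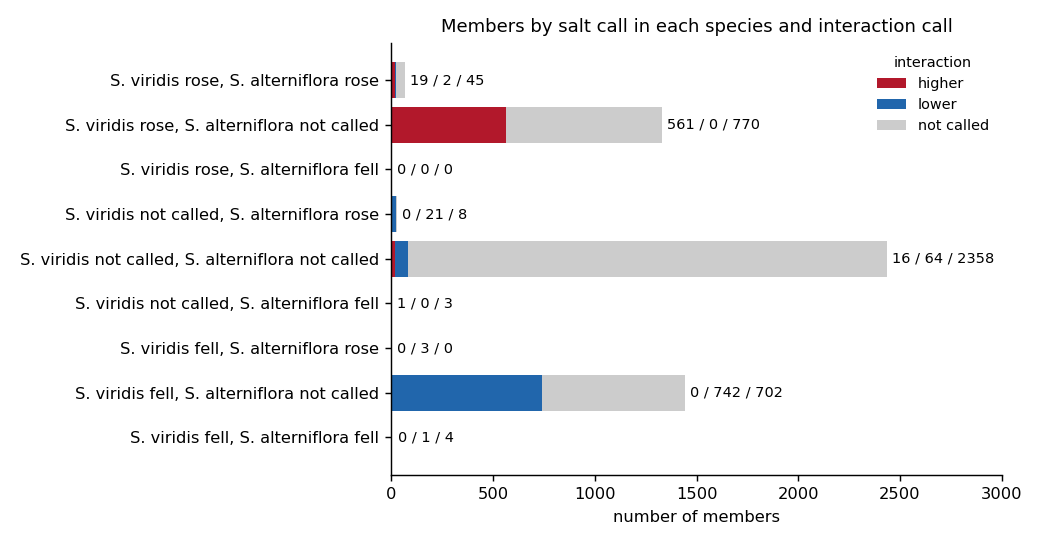
Number of members by their call in S. viridis and in S. alterniflora (rows), coloured by the interaction call; the figures at the bars give members called higher, called lower and not called. The 561 higher and 742 lower members that changed in S. viridis with no call in S. alterniflora make up most of the coloured part.

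Few called differences had the larger effect in S. alterniflora. The absolute effect was larger in S. viridis for 1309 of the 1430 called members and larger in S. alterniflora for 121. The S. alterniflora effect was within 0.5 (log2) of 0 for 848 of them, and the S. viridis effect for 47. Over all members the median absolute effect was already larger for S. viridis, at 0.844 against 0.37 for S. alterniflora, which favours such majorities. These counts were not made over all members or all fitted genes, and the called members were chosen by the same contrast. They are therefore no separate evidence. Among the 29 members that rose in S. alterniflora and were not called in S. viridis, 21 passed the interaction, with a median effect of 0.10 in S. viridis and 2.38 in S. alterniflora. Only 1 called member fell in S. alterniflora with no call in S. viridis, and it was chosen for naming after its values were seen. This gene, Sevir.6G150200, was at 13.67, 22.95 and 9.77 FPKM in S. viridis salt, against 11.38, 9.54 and 6 FPKM in S. viridis control, and at 5, 1.52 and 3.59 FPKM in S. alterniflora salt, against 13.81, 16.51 and 21.45 FPKM in S. alterniflora control. Its difference was 2.81 ± 0.54 (limma adjusted p = 0.00377), and its S. alterniflora call was lost in 4 of 6 fits without 1 library of the species.

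Opposite changes passing the test in both species were found for 3 members, all falling in S. viridis and rising in S. alterniflora. They are named because the set is small and were chosen after their values were seen. Sevir.2G331000 was at 33.59, 25.94 and 50.43 FPKM in S. viridis salt, against 71.16, 87.56 and 69.68 FPKM in S. viridis control, and at 107.78, 52.29 and 162.47 FPKM in S. alterniflora salt, against 7.08, 13.42 and 10.87 FPKM in S. alterniflora control. Neither pair of groups overlapped, and the difference was -4.22 ± 0.56 (limma adjusted p = 0.000411). Sevir.3G121200 was at 39.42, 17.59 and 45.19 FPKM in S. viridis salt, against 107.81, 86.15 and 77.18 FPKM in S. viridis control, and at 125.9, 188.45 and 155.71 FPKM in S. alterniflora salt, against 48.6, 42.62 and 58.18 FPKM in S. alterniflora control. Sevir.3G170700 was at 12.6, 4.37 and 4.12 FPKM in S. viridis salt, against 18.36, 14.27 and 15.96 FPKM in S. viridis control, and at 51.54, 49.03 and 54.73 FPKM in S. alterniflora salt, against 8.08, 15.89 and 14.49 FPKM in S. alterniflora control. In these 2 genes as well, salt and control libraries lay apart in each species, with differences of -3.10 ± 0.47 and -3.23 ± 0.52 (limma adjusted p = 0.00102 and 0.00129). The interaction calls of all 3 were kept with any 1 library left out, but the calls within S. alterniflora were not: Sevir.2G331000 and Sevir.3G170700 lost theirs in 5 and Sevir.3G121200 in 6 of the 6 fits without 1 library of the species, and without S. alterniflora control A the set held 0 genes. The S. viridis call was lost in 5 of 6 such fits for Sevir.3G170700 and in 1 of 6 for each of the other 2. Members that rose in S. viridis and fell in S. alterniflora by both limma calls numbered 0. At an unadjusted p under 0.05 in each species, limma gave 32 of that kind and 76 of the opposite kind. That threshold was passed by 3189 members for S. viridis, against 844 for S. alterniflora, so some joint passes can arise by chance. Their expected number was not computed and no share over all fitted genes was counted. The 32 and 76 are therefore not taken as opposite responses. By sign alone, without a test in each species, the 2 effects had opposite signs in 817 of the 1430 called members and the same sign in 613. Over all members they shared their sign in 59.2%. The called members were chosen by the difference of the 2 effects, which favours opposite signs, so the 817 are no separate evidence.

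Genes that changed alike in direction could still differ in size. Of 66 members that rose in both species, 19 rose more in S. viridis by the interaction, 2 rose more in S. alterniflora and 45 were not called. The 19 had a median effect of 6.30 in S. viridis and 2.53 in S. alterniflora, and the 45 had 2.68 in S. viridis and 2.50 in S. alterniflora. These sets were split by the same contrast, so their medians are no separate evidence. In controls the median of group means of the 19 was 3.65 FPKM in S. viridis and 4.43 FPKM in S. alterniflora, under the threshold of 5 FPKM. The 2 that rose more in S. alterniflora were Sevir.5G354100, with a difference of -1.07 ± 0.36 (limma adjusted p = 0.0492), and Sevir.9G374900, with -1.31 ± 0.44 (limma adjusted p = 0.0462). Both lost the call in 9 of the 12 fits that left out 1 library. Of 5 members that fell in both species, 1 was called. Sevir.9G079100 was at 0.09, 0.04 and 1.1 FPKM in S. viridis salt, against 178.51, 166.89 and 93.93 FPKM in S. viridis control. The S. alterniflora levels were 21.1, 30.66 and 29.53 FPKM under salt, against 75.9, 71.43 and 90.68 FPKM in controls. It fell in both, and by more in S. viridis, with a difference of -5.21 ± 0.47 (limma adjusted p = 3.65e-05), though its S. alterniflora call was lost in 5 of 6 fits without 1 library of the species. These 3 were also chosen after their values were seen. The set of 66 depended on S. alterniflora control library A, without which 0 of 11399 fitted genes were called in S. alterniflora (limma, with 552 members at an unadjusted p under 0.05) and the set was empty.

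**Figure D3:**
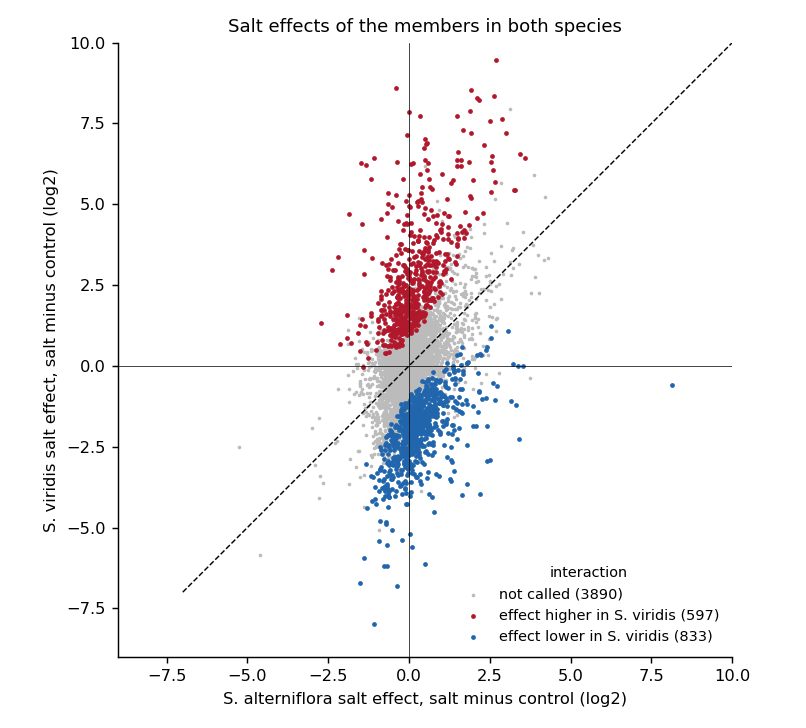
Salt effect (salt minus control, log2) of each of the 5320 members in S. alterniflora (horizontal) and S. viridis (vertical), coloured by the interaction call; the dashed line marks equal effects. Called members spread along the vertical axis, and 1 called member, Sevir.4G111600, lies far to the right at 8.13 in S. alterniflora.

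The terms of the difference had different widths. In S. viridis the absolute salt effect had a median of 0.844 and an upper quartile of 1.631 (log2), and 44.4% of members had an effect of 1 or more. In S. alterniflora the median was 0.37 and the upper quartile 0.679, and 12.8% had an effect of 1 or more. Within groups, libraries varied with a median SD per gene of 0.333 (log2) for S. viridis against 0.404 for S. alterniflora. Salt changed 2849 members in S. viridis, 1397 rising and 1452 falling, which is 53.6% against 52.5% of all genes fitted there (25.4% rising and 27.1% falling). In S. alterniflora it changed 107 members, 98 rising and 9 falling, which is 2.01% against 1.62% of all genes fitted there (1.43% rising and 0.194% falling). On simulated data with 200 changed genes the S. viridis fit recovered 24% of 2-fold and 78% of 4-fold changes, against 3% and 47% for the S. alterniflora fit. The adjusted threshold was stricter there than in the real fits, which called more genes, so the recovery of the real fits is not known. A gene not called in S. alterniflora is not shown to be unchanged there. Salt and control libraries did not overlap for 3568 members in S. viridis, which is 67.1% against 65.4% of all genes fitted, and for 1236 in S. alterniflora, which is 23.2% against 21.7%. The 2 effects shared their sign in 59.2% of members and correlated across them (Spearman's rho = 0.31, Pearson's r = 0.363), a description over genes whose effects come from the same 6 libraries per species.

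**Figure D4:**
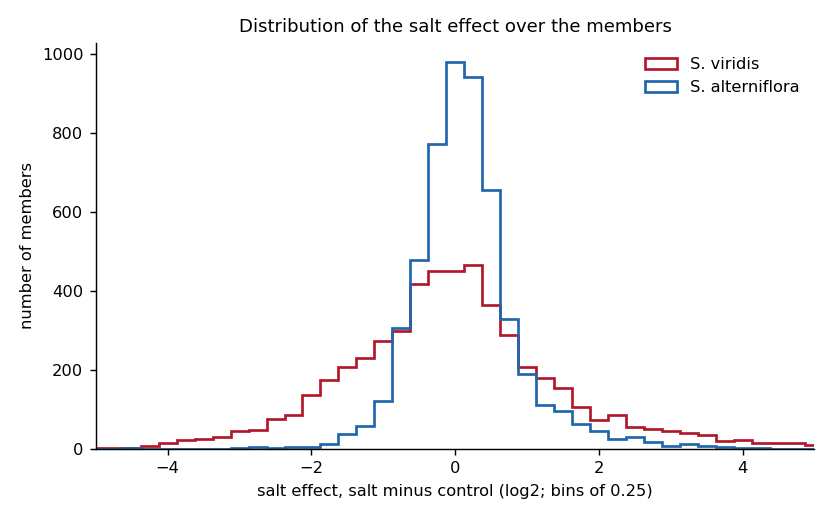
Number of members by salt effect (salt minus control, log2, bins of 0.25) in S. viridis and S. alterniflora; 91 members in S. viridis and 2 in S. alterniflora lie beyond 5 in either direction and are not shown. The S. viridis curve is lower and wider, with a median absolute effect of 0.844 against 0.37.

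In S. viridis the largest rises among members were those of Sevir.2G348000 and of Sevir.8G069200, described above. Sevir.2G348000 was at 1325.48, 5619.94 and 400.92 FPKM in S. viridis salt, against 3.27, 0.68 and 0.17 FPKM in S. viridis control, an effect of 9.47 ± 0.93 (limma adjusted p = 0.000343). In S. alterniflora it was at 0.05, 25.74 and 9.46 FPKM under salt, against 0.07, 0 and 0 FPKM in controls, so its mean there rests on 2 salt libraries and its groups overlapped. The difference was 6.77 ± 1.53 (limma adjusted p = 0.00896), and 5.44 to 7.77 with any 1 of the 12 libraries left out. The S. viridis effect was 8.49 to 10.39 with 1 S. viridis library left out, lowest without salt B and highest without salt C. The largest falls were those of Sevir.2G294100, above, and Sevir.4G127600. In S. viridis, Sevir.4G127600 was at 1.43, 4.8 and 0.94 FPKM under salt, against 438.54, 459.43 and 191.84 FPKM in controls, an effect of -6.81 ± 0.50 (limma adjusted p = 0.000108). In S. alterniflora it was at 29.2, 21.95 and 26.54 FPKM under salt, against 30.09, 40.58 and 30.9 FPKM in controls, an effect of -0.37 ± 0.25 that did not pass (limma adjusted p = 0.544). Its difference was -6.45 ± 0.59 (limma adjusted p = 3.91e-05).

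The next largest S. alterniflora effects among members called in that species did not pass the test of the difference, and their intervals are wide. After Sevir.4G111600, the largest called rise was that of Sevir.1G076900, at 11.58, 35.18 and 13.18 FPKM in S. alterniflora salt and listed at 0 in all 3 S. alterniflora controls (limma adjusted p = 0.00944). It also rose in S. viridis, to 168.62, 47.12 and 33.97 FPKM under salt, against 0.71, 0.98 and 0.59 FPKM in controls, and its difference did not pass (95% interval -0.60 to 2.62, limma adjusted p = 0.347). Sevir.3G270500 fell in S. alterniflora to 8.59, 37.57 and 1.65 FPKM under salt, against 392.82, 456.33 and 296.27 FPKM in controls (-5.25 ± 0.85, limma adjusted p = 0.0335). In S. viridis it was at 35.25, 1522.89 and 247 FPKM under salt, against 1614.26, 1984.69 and 777.54 FPKM in controls, where the groups overlapped, and its difference of 2.74 ± 1.62 did not pass (95% interval -0.79 to 6.27, limma adjusted p = 0.24). The S. alterniflora call of Sevir.3G270500 was lost in 5 of the 6 fits that left out 1 library of the species. Sevir.3G135700 fell to 3.57, 3.33 and 0.85 FPKM in S. alterniflora salt, against 82, 46.9 and 130.94 FPKM in S. alterniflora control. In S. viridis it fell to 0.09, 2.36 and 0.29 FPKM under salt, against 76.64, 113.18 and 102.79 FPKM in controls. The interval of its difference, -2.78 to 0.27 (95%), includes 0 and a fall in S. viridis that is 4-fold larger. The count of S. alterniflora calls among members rested on single libraries: it was 0 without control A (552 at an unadjusted limma p under 0.05, against 844 with all libraries), 37 without control B, 29 without control C, 64 without salt A and 15 without salt C.

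A missed threshold does not show that 2 effects were alike, so the 95% interval of each difference was read as well. It lay wholly within 2-fold in either direction for 486 members, or 9.14%, against 8.62% of all fitted genes. None of these was called by the interaction, 43 of them rose and 11 fell in S. viridis, and 432 were not called there. Of the 66 members that rose in both species, 1 had such an interval. For 3404 members, 64% of the total, the interval was too wide or too far from 0 for that statement and the test was not passed either, so the data decide neither way. The median interval was 2.024 (log2) wide. The count of 486 was 245 to 250 with any 1 S. viridis control left out, 316 without S. alterniflora salt library C and 299 without S. alterniflora control library A.

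Called differences were more frequent among abundant members. Of 2441 members with a mean under 20 FPKM over the 12 libraries, 20.7% were called, 221 higher and 285 lower. At 20 to 100 FPKM it was 28.5% of 2228, with 277 higher and 357 lower, and at 100 FPKM and above 44.5% of 651, with 99 higher and 191 lower. The median SE of the difference did not fall along these classes (0.442, 0.467 and 0.556), while the median absolute difference was 0.684, 0.903 and 1.477. The mean includes the group in which a gene is high, and the log2(FPKM + 1) scale shrinks changes of low genes, so level and difference are not separate measures here. Over all fitted genes the called share was 24.2%. It was not counted there by class of abundance, so the gradient is no result about the members. By the chromosome number in the gene ID, the called share ran from 24.3% of 691 members on chromosome 1 to 29.6% of 432 on chromosome 4.

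Some members reached the threshold through part of the groups. In all 4 groups the mean was at least 5 FPKM for 4233 members, of which 945 were called, or 22.3%, below the 24.2% over all fitted genes. The other 1087 had a group mean under 5 FPKM and 485 of them were called, or 44.6%. By the threshold, the other group of the same species must then average above 5 FPKM, so these members are partly chosen by a difference between salt and control. Such a difference can be small and is not by itself a difference of salt effects between the species. Of the genes named above for the largest differences or S. viridis effects, all but Sevir.4G111600 were such members. The S. viridis control mean was 0.41 FPKM for Sevir.8G069200, 1.14 FPKM for Sevir.9G190700 and 1.37 FPKM for Sevir.2G348000. The S. viridis salt mean was 0.51 FPKM for Sevir.2G294100 and 2.39 FPKM for Sevir.4G127600. A mean under 5 FPKM was found for 433 members in S. viridis salt, 404 in S. viridis control, 132 in S. alterniflora salt and 261 in S. alterniflora control. At the threshold itself little changed: the median absolute difference was 0.782 for the 267 members whose lower species mean was 5 to 5.5 FPKM and 0.795 for the 284 genes at 4.5 to 5 FPKM, which are no members.

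Levels of the members in FPKM were also set side by side between the species. They may not be on 1 scale, since the way S. alterniflora reads were placed on Setaria IDs is not given. The median absolute difference in level between the species was 1.025 (log2) between salt groups and 0.887 between control groups, and it was larger under salt for 2933 of 5320 members. Among called members it was larger under salt for 363 of the 597 higher ones and for 520 of the 833 lower ones, and smaller for 234 and 313. These values have no test, and the correlations given above show a wider spread among salt libraries than among controls in S. viridis, whose part in the result was not tested.

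Single libraries moved the number of calls and no direction. Without S. viridis salt library C 1884 members were called, 670 higher and 1214 lower. That library was the nearest of the 3 salt libraries to the control mean for 3045 of all 5320 members. It was the nearest for 1040 of the 1328 members called both by the interaction and in S. viridis, which were chosen partly by their S. viridis effect. Without S. alterniflora salt library B 1448 were called. The lowest counts were 941 without S. viridis control B, 950 without control C and 967 without control A. Of the 1430 members, 857 were called in all 12 fits with 1 library left out, 393 higher and 464 lower, and 371 in fewer than 6 of them. The difference changed sign in 0 of the 1430.

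**Figure D5:**
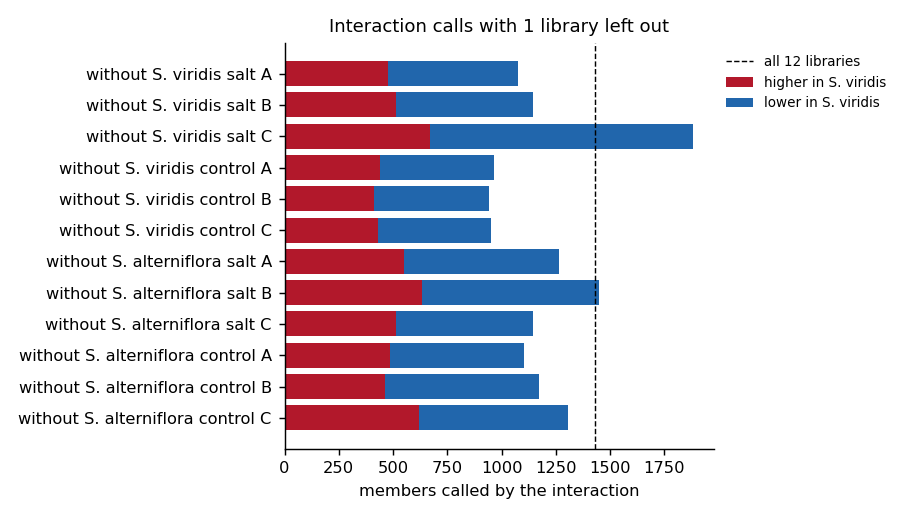
Members called by the interaction with each of the 12 libraries left out, stacked as higher and lower in S. viridis; the dashed line marks the 1430 calls with all libraries. Counts run from 941 without S. viridis control library B to 1884 without S. viridis salt library C.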

How the data were processed

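The authors deposited 1 table of FPKM values for 15218 gene IDs, 1 column for each of 12 libraries. Per the labels' protocols, mature leaf RNA was sequenced on the Illumina platform in paired 150 bp reads, and the authors named RSEM and edgeR, with neither version nor role, per the submitters' processing notes. Not given in the sources used here are the aligner, reference, build, filters and the way reads of S. alterniflora were placed on Setaria IDs, so divergent or near-identical genes may be misread. Columns were assigned to groups by species and treatment, not to single samples.

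The log2(FPKM + 1) values were fitted with limma 3.58.1 (R 4.3.3), using the two-sided moderated test of eBayes, a mean-variance trend and Benjamini-Hochberg adjusted p-values with a threshold of 0.05. The interaction, (S. viridis salt minus control) minus (S. alterniflora salt minus control), used all 12 libraries and the 12529 genes that averaged 1 FPKM or more over them. Its p-values rest on a single spread per gene shared by the 4 groups, although S. viridis controls correlated more closely with each other than the libraries of the other groups did. Each salt effect used the 6 libraries of its species (11266 and 11330 genes). Changes of low genes are understated on this scale. Figures were drawn in matplotlib 3.10.9 (Python 3.11.15, pandas 2.3.3). Members, tests and lists were chosen with earlier results of these data known. By rule, the 2 largest positive and 2 largest negative called estimates among members are named per comparison. Planned gene lists could not be used, since 0 IDs are paired with a name. In simulated data with 200 changed genes among 12529, the interaction fit recovered 0% of 2-fold and 27% of 4-fold changes with 2 false calls (S. viridis fit 24% and 78% among 11266 genes, S. alterniflora fit 3% and 47% among 11330), at a stricter adjusted threshold than in the real fit, which called more genes.

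Ratios of low values between libraries piled up at 0.923 to 1.221 within S. alterniflora and 0.861 to 1 within S. viridis, which steps of single reads or the table's 2 decimals could give, so depth remains unknown. Alternatives were the pseudocount, filter, scaling, trend, array weights per species, column letter as a block, other member thresholds, salt effects taken from the 12-library fit and each library left out in turn.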

Additional observations from a re-analysis of the deposited data

Results flagged for a closer look

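By the interaction test, 1430 members had a salt effect that differed between the species. Among the genes named by rule, the difference (S. viridis effect minus that of S. alterniflora, log2) was 8.986 for Sevir.8G069200, 7.856 for Sevir.9G190700 and 6.77 for Sevir.2G348000, and -8.732 for Sevir.4G111600, -6.902 for Sevir.2G294100 and -6.445 for Sevir.4G127600. Groups of 3 libraries are too small for a test of single outlying libraries.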

How the results depend on the processing

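The count of interaction calls stayed within 1.5 times the 1430 under 10 of 11 planned settings other than left-out libraries. It was 945 where each of the 4 group means had to reach 5 FPKM. Other thresholds also change the number of members, so raw counts are not alike there. Calls were 945 of 4233 members in that setting, against 1430 of 5320 as reported. At a mean of 10 FPKM they were 976 of 3375, and at 2 FPKM 1997 of 7829. The split of interaction calls between higher and lower was 41.7% higher as reported, 39.9% with upper quartile scaling and 45.4% with median centring. Over all fitted genes the median difference was -0.14 (log2) as reported and -0.016 with median centring, so relative to the typical gene the excess of lower differences is smaller. The count with an interval within 2-fold was 288 for members at a mean of 10 FPKM, and S. viridis calls were then 1876, since fewer genes count as members. S. alterniflora calls were 236 in the 12-library fit and 52 where each group mean had to reach 5 FPKM. With 1 library left out, interaction calls were 941 to 1884, S. viridis calls 1931 to 3335, S. alterniflora calls 0 to 87 and intervals within 2-fold 245 to 607. Without S. viridis salt C, S. alterniflora salt B or S. alterniflora control A, in turn, which were chosen after seeing the data, members that rose in both species numbered 0 to 63, members that rose in S. viridis with no call in S. alterniflora and a higher difference 475 to 639, and those that fell there with a lower difference 580 to 1145. Of 192 alternative values of the genes named by rule, 182 kept direction and call, 10 lost the call and 0 reversed. Those 10 were S. alterniflora effects with 1 S. alterniflora library left out. Genes chosen after their values were seen are not in this count, and the calls they lost are given above.

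The column letter as a replicate block gave 1234 interaction calls, 2660 S. viridis calls, 61 S. alterniflora calls and 245 intervals within 2-fold. Same-lettered salt and control libraries had deviations that correlated at 0.034 to 0.068 within S. viridis, and within S. alterniflora at -0.011 to 0.052, so the letters are not taken to pair libraries, and not every library correlated best with its own letter. The causes of these shifts were not tested. Unknown depth limits every value.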
